A study of Mus musculus with 5 samples.

Results

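The cycling cells of 11-day mouse salivary gland organoids (mSGOs) were taken as the cell barcodes that carried transcripts of at least 4 of 10 proliferation genes (Mki67, Top2a, Cdk1, Ccnb1, Ccna2, Birc5, Cenpf, Ube2c, Tpx2 and Nusap1). A barcode also had to hold at least 2000 unique molecular identifiers (UMIs, each of which counts 1 captured RNA molecule) and at most 5% of its UMIs from mitochondrial genes. Of the 9367 barcodes of the library that passed both quality limits, 124 (1.32%, 95% Clopper-Pearson interval 1.10 to 1.58) met the rule, and the other 9243 served as the comparison. The whole series held 72788 barcodes in 5 libraries.

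A dividing cell copies its DNA in S phase, using origin licensing factors, polymerases and enzymes that supply deoxynucleotides, and then builds a spindle and separates its chromosomes in mitosis. Many genes of mitosis are switched on late in the cycle and their products are destroyed as the cell divides, so their transcripts are scarce in resting cells. In the salivary gland ducts, dividing cells are rare under normal conditions, and culture in Matrigel, a basement membrane gel, brings dissociated gland cells back into division.

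The library came from non-irradiated mSGOs grown for 11 days from submandibular glands of C57BL/6 mice, with organoids of 4 animals pooled and no age given for them in the labels. All mSGO cultures of the series shared a medium with EGF, FGF2, insulin, dexamethasone, Y27632 and conditioned media for R-spondin1 and Wnt3a. In each sample 45000 cells that excluded propidium iodide were sorted into a droplet-based 3′ assay. The 11-day mSGOs were made from another batch of animals and processed in a separate run, so culture day cannot be told apart from animals and run when they are set beside the 7-day libraries, which were non-irradiated control mSGOs and mSGOs given 7 Gy of photons or of protons on day 5. Those and a library of freshly isolated gland came from mice of 8 to 12 weeks. There was 1 library per group and barcodes of 1 library are not replicates, so no test was run; each interval below covers counting error only.

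The 11-day matrix held 14266 barcodes and 40166701 UMIs, and 3927 barcodes were over the mitochondrial limit. Cycling barcodes were deeper than the others, with a median of 6149 UMIs (lowest 2774, highest 15810) against 3190, and a median of 2521.5 detected genes against 1656. After each barcode was thinned at random to 2000 UMIs, the median number of genes was 1167 in cycling and 1174 in other barcodes. The doublet caller Scrublet marked 8.87% of cycling and 12.5% of other barcodes. Markers of other cell types were near 0: 4 of the 124 barcodes held a UMI of any of 12 immune markers, 1 held a UMI of the endothelial markers and none held one of the fibroblast markers. The epithelial gene Epcam was detected in all 124.

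The 10 genes that chose the barcodes are given as a description, since the rule fixed their direction. Ube2c, which encodes the ubiquitin-conjugating enzyme of the anaphase-promoting complex, had 567 UMIs in cycling and 55 in other barcodes, or 688 against 1.64 CPM (UMIs per 1000000 summed over the group). Cenpf, a kinetochore protein of late G2 and mitosis, stood at 557 against 1.04 CPM. The proliferation antigen Mki67 stood at 387 against 1.94 CPM and the topoisomerase Top2a at 452 against 3.31 CPM. Birc5, the survivin subunit of the chromosomal passenger complex, was the most widely detected, with a UMI in 91.1% of cycling and 1.53% of other barcodes. The mitotic cyclin gene Ccnb1 was the least widely detected in cycling barcodes, in 42.7% of them and 0.0649% of the others. No barcode was needed to hold any given gene: with cycling barcodes chosen by the other 9 genes alone, Ube2c was detected in 79.0% and Ccnb1 in 40.8% of them.

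The number of rule genes per barcode had no gap at the limit. Of the 9367 barcodes 8707 held none of the 10 genes, 483 held 1, 33 held 2 and 20 held 3, whereas 20 held 4, 10 held 5, 19 held 6, 21 held 7, 19 held 8, 20 held 9 and 15 held all 10. The 20 barcodes just inside the limit and the 20 just outside it were close to each other in depth (median 5566 and 4585 UMIs) and in replication transcripts (38.9 and 37.2 UMIs per 10000, by the sum described below). Their mitosis sums, made without the rule genes, had medians of 36.7 and 28.0. In 7-day control mSGOs far more barcodes held a few of the genes, with 658, 659, 361 and 157 holding 0, 1, 2 and 3. Ube2c stood at 93.8 CPM in the barcodes of that library outside the rule, against 1.64 CPM at 11 days. UMIs from free RNA were not separated from a cell's own in either library, and the shares in barcodes outside the rule include them.

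Set side by side, the same rule took 112 of 1947 barcodes of 7-day control mSGOs (5.75%, 4.76 to 6.88), 50 of 2965 after photons (1.69%), 50 of 2892 after protons (1.73%) and 4 of 1169 in tissue (0.342%). Depth differed, with the cycling barcodes of the 7-day control at a median of 8916.5 UMIs. At 2000 UMIs per barcode the shares were 0.843% at 11 days (79 barcodes), 1.90% in the 7-day control, 0.506% after photons and 0.692% after protons. The share at 11 days rested on the quality limits as well: among barcodes with at least 2500 detected genes, the limit named in the methods of the study, it was 7.67%. No cycling barcode sequence occurred among the quality barcodes of another library.

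Genes were compared by UMIs summed over cycling and over other barcodes and scaled to CPM; each log2 ratio was taken after adding 1 CPM to both sides. Every gene value below belongs to the same contrast as the rule and is a description. A gene was called at least 2-fold higher or lower among the 6869 genes with at least 200 UMIs in all and 20 CPM in the higher group. In cycling barcodes 380 of them (5.53%) were called higher and 393 (5.72%) lower, the higher ones including 7 of the 10 rule genes, with a median log2 ratio of -0.07 over all 6869. Counting intervals are conditional exact binomial and were computed without the pseudocount, so for genes near 0 in the other barcodes they lie above the printed ratio. Lists are given by the genes with at least 10 UMIs.

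Genes of mitosis led the higher genes. All 24 genes of the spindle and kinesin list were at least 2-fold higher, as were 27 of 30 mitotic kinases and regulators and 29 of 30 kinetochore and checkpoint genes, with median log2 ratios of 4.53, 4.28 and 4.05. The highest of these lists was Hmmr, a spindle assembly factor, at 312 against 1.31 CPM (log2 7.08, interval 7.43 to 8.39). Cenpe, the kinetochore motor, stood at 228 against 1.31 CPM, Cdca8, the borealin subunit of the chromosomal passenger complex, at 348 against 3.55 CPM, and Cenpa, the centromeric histone, at 366 against 5.99 CPM. Prc1, which bundles the microtubules of the central spindle, stood at 372 against 7.60 CPM. Abundant cytoskeletal genes of the same lists differed less, with Stmn1, a microtubule destabiliser, at 936 against 44.1 CPM (log2 4.38, 4.28 to 4.54) and Tubb4b, a tubulin, at 761 against 218 CPM (1.80, 1.69 to 1.92). The lowest of the 30 mitotic regulators was Pttg1, securin, whose log2 ratio of 0.16 had an interval across 0 (-0.24 to 0.53). Cdkn3, a phosphatase of cyclin-dependent kinases, was far above the other 7 genes listed as Cdk inhibitors, at 141 against 0.775 CPM.

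**Figure D1:**
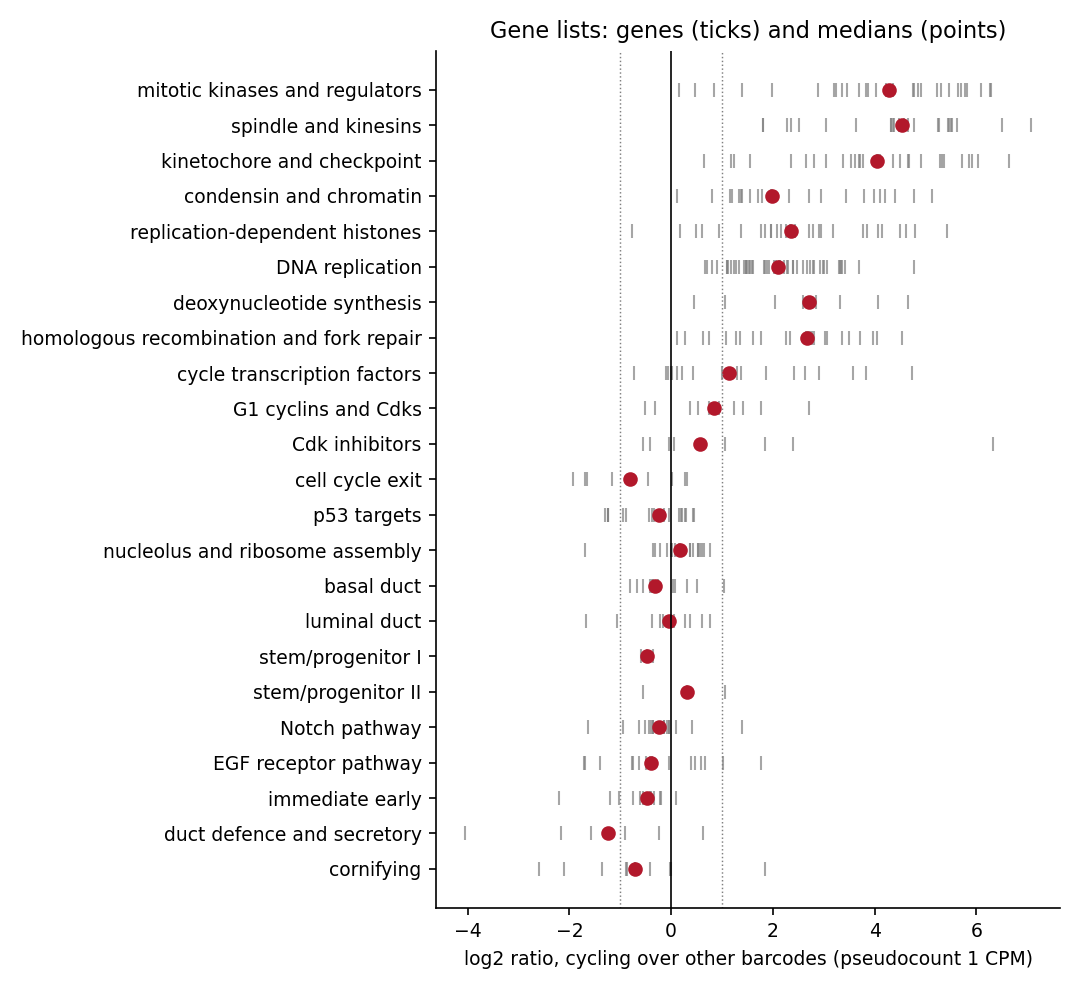
Log2 ratio of cycling over other barcodes for the genes of each list with at least 10 UMIs (grey ticks) and the list's median (red points); dotted lines mark 2-fold. The spindle, mitotic kinase and kinetochore medians lie between 4.05 and 4.53, the DNA replication median at 2.09, and the basal and luminal duct medians at -0.31 and -0.05.

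The promoters of these genes shared short sequences that the rule did not use. RefSeq promoters on GRCm38.p6, each 250 bases before to 50 after a gene's start, matched 70 of the 84 genes of the 3 mitosis lists (77 promoters) and 5479 of the genes that could be called (7057 promoters). The letters TTTGAA, the core of the cell cycle homology region (CHR), were found on either strand in 61.0% of these promoters, against 11.9% of the promoters of callable genes and 17.9% of all 32851 promoters. The CCAAT box, bound by the factor NF-Y, was found in 76.6%, against 36.6% and 37.4%. The letters GCGGGAA, an E2F-type sequence, were found in 37.5% of the 48 promoters of DNA replication genes, against 10.4% of the mitosis promoters, 8.80% of the promoters of callable genes and 4.60% of all. None of the 3 words contains another, although neighbouring matches can share end bases, and a match describes letters only. A TTTGAA lay in the 50 bases before the start site in 16 of the 77 mitosis promoters and in 106 of the 7057. Of the 8 rule genes with a promoter in the table, 5 held both TTTGAA and CCAAT. The following show 2 rule genes and 1 further mitosis gene with both words, and Pclaf, a gene outside the lists with 2 copies of GCGGGAA; they are printed 5′ to 3′ on the gene's strand, with every match to the 3 words on either strand in capitals. Ube2c lies at chr2:164769679-164769978 (plus strand); Cenpf at chr1:189688037-189688336 (minus strand); Cdc20 at chr4:118437294-118437593 (minus strand); and Pclaf at chr9:65890073-65890372 (plus strand), all on GRCm38.p6.
Ube2c: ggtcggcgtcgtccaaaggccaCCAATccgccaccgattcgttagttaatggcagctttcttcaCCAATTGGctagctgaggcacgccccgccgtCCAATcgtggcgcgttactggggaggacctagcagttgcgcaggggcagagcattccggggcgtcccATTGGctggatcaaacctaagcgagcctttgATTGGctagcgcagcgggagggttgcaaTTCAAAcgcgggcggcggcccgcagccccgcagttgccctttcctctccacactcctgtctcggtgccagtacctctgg
Cenpf: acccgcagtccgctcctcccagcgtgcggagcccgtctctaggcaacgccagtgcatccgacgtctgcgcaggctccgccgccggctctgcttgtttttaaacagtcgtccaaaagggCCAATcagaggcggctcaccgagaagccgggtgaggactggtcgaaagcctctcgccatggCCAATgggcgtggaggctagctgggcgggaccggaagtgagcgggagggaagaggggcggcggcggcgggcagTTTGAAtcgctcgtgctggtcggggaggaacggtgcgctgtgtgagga
Cdc20: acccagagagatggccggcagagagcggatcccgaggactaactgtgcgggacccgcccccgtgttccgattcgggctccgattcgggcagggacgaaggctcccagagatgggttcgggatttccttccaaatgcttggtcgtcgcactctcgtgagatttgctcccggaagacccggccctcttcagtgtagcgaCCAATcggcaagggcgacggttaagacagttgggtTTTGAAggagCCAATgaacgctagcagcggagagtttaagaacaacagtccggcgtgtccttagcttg
Pclaf: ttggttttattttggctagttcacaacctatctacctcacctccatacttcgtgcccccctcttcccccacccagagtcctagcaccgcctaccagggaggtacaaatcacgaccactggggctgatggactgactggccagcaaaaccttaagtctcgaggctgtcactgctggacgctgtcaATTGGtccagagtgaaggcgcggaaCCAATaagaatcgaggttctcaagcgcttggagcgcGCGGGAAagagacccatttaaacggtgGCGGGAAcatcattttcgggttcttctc

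Ube2c and Cenpf are described above. Cdc20, the activator of the anaphase-promoting complex, was found in 41.9% of cycling and 0.346% of other barcodes, at 113 against 1.01 CPM. Pclaf, a PCNA-binding factor that was in none of the lists, had the highest log2 ratio of the callable genes outside the lists (6.79, 6.84 to 7.43), at 530 against 3.78 CPM. Among genes at least 2-fold lower in cycling barcodes the share of promoters with TTTGAA was 13.0% and with CCAAT 35.4%.

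Genes of DNA synthesis were higher by less. Of 50 DNA replication genes 46 were at least 2-fold higher and all 50 had a ratio above 0, with a median log2 ratio of 2.09 (medians of the genes' interval bounds 1.67 and 2.77). Pcna, the sliding clamp of the polymerases, stood at 120 against 42.6 CPM (1.47, 1.18 to 1.79), and Clspn, the checkpoint adaptor claspin, was the highest of the list at 83.7 against 2.12 CPM. Of 8 genes of deoxynucleotide synthesis 7 were at least 2-fold higher: the S phase enzyme gene Tk1 had a log2 ratio of 4.66 (4.55 to 5.17), Rrm2 one of 4.07 (3.92 to 4.74) and Dck, of the salvage pathway, one of 0.45 (-0.52 to 1.35). Of 24 genes of recombination and fork repair 20 were at least 2-fold higher. Chromatin genes included H2afz, a histone variant, at 2670 against 683 CPM (1.97, 1.90 to 2.03), and Hmgb2, a DNA-bending protein, at 1099 against 167 CPM (2.72, 2.62 to 2.82). Of 29 replication-dependent histone genes 24 were at least 2-fold higher, led by the linker histone gene Hist1h1b at 416 against 8.70 CPM. Many of these histone genes are near-identical copies whose transcripts mostly lack poly(A) tails, so their counts are uncertain.

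Regulators of entry into the cycle were mixed. Of 10 G1 cyclins and Cdks 4 were at least 2-fold higher, led by Ccne1, cyclin E1 (log2 2.71, from 12 UMIs in cycling barcodes), as were 4 of 8 genes listed as Cdk inhibitors. The D-type cyclin genes stood closer to the other barcodes. Ccnd1, cyclin D1, stood at 619 against 369 CPM (0.74, 0.61 to 0.87) and Ccnd2 at 262 against 183 CPM, while Cdk6 was at 108 against 135 CPM and Ccnd3 at 57.0 against 81.4 CPM. Cdkn1a, the p21 inhibitor, had a log2 ratio of -0.42 (-0.72 to -0.15) and Cdkn1b, p27, one of -0.54 (-1.12 to -0.05). Of 8 genes listed for cell cycle exit 4 were at least 2-fold lower, among them Klf6 at 178 against 577 CPM (-1.69, -1.94 to -1.46) and Cited2 at 97.0 against 373 CPM (-1.93, -2.28 to -1.63). Myc, listed with nucleolar and ribosome assembly genes, was the lowest of those 19 (log2 -1.70, -2.32 to -1.19), whereas the list's median was 0.18. The median over 18 p53 targets was -0.24, with 4 at least 2-fold lower and none higher.

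The cycling barcodes carried basal and luminal duct genes at levels near those of the other barcodes. Of 12 basal duct genes 1 was at least 2-fold higher and none lower (median log2 -0.31), and of 10 luminal duct genes none was higher and 2 were lower (median -0.05, and 0.03 when scaled by the median of gene ratios). The basal keratin Krt14 stood at 2319 against 1631 CPM (0.51, 0.44 to 0.57) and its partner Krt5 at 1046 against 1020 CPM (0.04, -0.06 to 0.13). The laminin receptor subunit Itga3 was the basal gene past 2-fold (1.03, 0.73 to 1.35), and Dst, a hemidesmosome linker, was the lowest (-0.81, -1.13 to -0.52). Among luminal genes Krt18 had a log2 ratio of 0.07 (-0.04 to 0.17), Krt7 one of -0.16 (-0.27 to -0.06) and Epcam one of 0.61 (0.54 to 0.69). The tight junction gene Cldn4 was lower, at 59.4 against 192 CPM (-1.68, -2.13 to -1.29). All 12 basal and 10 luminal genes had at least 10 UMIs, so these counts cover both lists in full.

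The 2 stem/progenitor marker sets by which the study named populations of mSGOs were near the other barcodes, and of their genes only Cd44 passed 2-fold. Cd164, Sox9 and Cd24a of set I stood at -0.58, -0.47 and -0.36 in log2 ratio, each with an interval below 0. Of set II, the hyaluronan receptor Cd44 stood at 361 against 172 CPM (1.07, 0.90 to 1.24), though below 2-fold at 2000 UMIs (0.92), with at least 2500 genes (0.98) or 4000 UMIs (0.83), or with the others weighted to the UMI distribution of cycling barcodes (0.79), and the integrin Itgb1 at 655 against 531 CPM (0.30, 0.18 to 0.43), while the basal transcription factor Trp63 was at 116 against 171 CPM (-0.55, -0.86 to -0.26). Of 16 measured Notch pathway genes 1 was at least 2-fold higher and 1 lower, with Notch1 at -0.39 (-0.73 to -0.07) and Hes1 at -0.35 (-0.87 to 0.11). At 2000 UMIs per barcode, where the rule took 79 barcodes, the log2 ratio of Notch1 was 0.19 with an interval across 0 (-0.47 to 0.78). Sostdc1, a secreted Wnt and BMP antagonist, was the highest of the Wnt pathway list at 431 against 125 CPM (1.77, 1.62 to 1.94). Lgals7, galectin-7, stood at 347 against 96.6 CPM and the water channel gene Aqp5 at 46.1 against 11.8 CPM (1.88, 1.45 to 2.45), with Aqp5 found in 15.3% of cycling barcodes. In the pro-acinar list, which holds Aqp5, 2 of 6 measured genes were at least 2-fold higher and 1 lower (median 0.04). The other higher gene, Dcpp1, had 147 UMIs in cycling barcodes, all from 1 barcode. In the myoepithelial list, which holds Lgals7, 1 of 8 measured genes was higher and 2 were lower (median -0.01).

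Some genes of duct defence and of surface epithelium were lower. In the duct defence list Lcn2, Cxcl17 and Ltf (2 UMIs in cycling barcodes) were at least 2-fold lower of 6 measured genes. In the cornifying list Sprr1a, Krt13 and Sprr2h (0 UMIs) were lower and Krtdap higher of 11, where 5.72% of all callable genes were lower. In the striated and granular duct list Esrrg, a nuclear receptor gene, stood at 268 against 430 CPM (-0.68, -0.88 to -0.49), and the other 8 measured genes had 1 UMI together in cycling barcodes, too few for a comparison. Psca, a surface antigen of secretory epithelia, had 0 UMIs in cycling barcodes, but its 3260 UMIs in the others came from 124 barcodes (1.34%). Sprr2d, of the cornified envelope, also had 0 UMIs, with 1507 UMIs from 70 other barcodes (0.757%). For genes held by so few barcodes a difference was not detectable with 124 cycling barcodes, and no fold is given. The more widely found Fxyd2, a regulator of the sodium pump, was detected in 21.6% of other and 2.42% of cycling barcodes (199 and 6.07 CPM), and Scnn1a, a subunit of the epithelial sodium channel, in 11.6% and 1.61%. Sprr1a, another cornified envelope gene, stood at 412 against 2494 CPM (-2.59, -2.75 to -2.44). Of the defence genes, Lcn2, which binds bacterial siderophores, stood at 614 against 2743 CPM (-2.16, -2.29 to -2.03) and Cxcl17 at 86.1 against 259 CPM, whereas Wfdc2, an abundant secreted protease inhibitor, was at 4984 against 5883 CPM (-0.24, -0.28 to -0.19).

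To see where in the organoids the cycling barcodes lay, the 9367 barcodes were clustered without any gene of the cycle lists. Cycle genes outside those lists, such as Pclaf, were not left out. Cluster 5, of 10 in all, held 114 of the 124 cycling barcodes, or 13.6% of its 840 barcodes (11.3 to 16.1). Cluster 8 followed with 4 of 242 (1.65%, 0.452 to 4.18), and 4 clusters held none. With 2000 UMIs per barcode, 74 of the 79 cycling barcodes were in cluster 5. When genes at least 2-fold higher in cycling barcodes were also left out of the clustering, the fullest cluster held 99 cycling barcodes in 1457 (6.79%), and 97 in 1095 (8.86%) when lower genes were left out too.

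**Figure D2:**
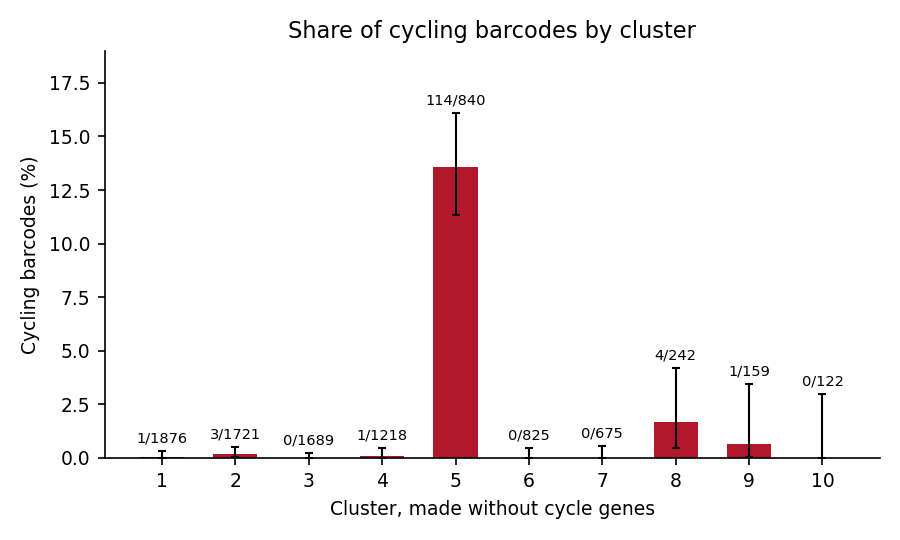
Share of cycling barcodes in each of 10 clusters made without the genes of the cycle lists, with 95% Clopper-Pearson intervals. Numbers above the bars give cycling barcodes over all barcodes of the cluster. Cluster 5 stands at 13.6% and no other cluster exceeds 1.65%.

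The other 726 barcodes of cluster 5 are called cluster mates here. Of them 607 held none of the 10 rule genes, and their median was 4690 UMIs. The leading genes of the mates over the other clusters were Meg3, Klra4, Vim, Emp3, Il1rn, Adam12, Lgals1, Apoc1, Basp1 and Fdps, and no marker list gave the cluster another name. Part of the difference between cycling and other barcodes was also present in the mates. Clusters were built from genes outside the cycle lists, so closeness to the mates in such genes was partly set by the clustering. Cycle-list genes were left out of it and the mates were outside the rule, which favoured a difference in those genes. Ratios over the mates use the 114 cycling barcodes of cluster 5. Of the 380 genes called higher, 194 were also at least 2-fold higher than in the mates, including 84 of the 96 that were in a cycle list, and 73 were within 0.5 log2 units of the mates, none of them in a cycle list. Of the 393 called lower, 108 were also at least 2-fold lower than in the mates and 120 were within 0.5. These counts take every gene called against all other barcodes, whatever its UMIs in the cluster.

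The cholesterol synthesis genes were of the shared kind; this list of 20 genes was chosen after values had been seen. In cycling against other barcodes 14 of the 20 were at least 2-fold higher, with a median log2 ratio of 1.49, and against the mates none was higher or lower by that much, with a median of 0.04. Fdps, farnesyl diphosphate synthase, had a log2 ratio of 2.32 over all other barcodes, mates included, and of 0.19 over the mates. Idi1, an enzyme just before it, stood at 274 CPM in the 114 cycling barcodes of cluster 5, 254 CPM in the mates and 32.1 CPM in the 8517 barcodes of other clusters outside the rule. The secreted IGF-binding protein gene Igfbp7 was at 691, 577 and 120 CPM in the same order. Over the mates, Cd44 stood 0.32, Sostdc1 0.16 and Lgals7 0.18 log2 units higher. The basal and luminal lists had medians of -0.22 and -0.39 against the mates, with Krt14 at 3010 CPM and Krt17 at 2890 CPM in the mates. The spindle, kinetochore and DNA replication medians against the mates were 4.40, 3.45 and 1.31, a difference that the rule and the clustering favoured in advance. The median of the cell cycle exit list was -0.29 against the mates and -0.81 over all other barcodes. Called on its own, with at least 100 UMIs in the cluster and 20 CPM in the higher group, this comparison had 152 of 5899 genes (2.58%) higher and 89 (1.51%) lower; the counts of 194 and 108 above include genes under those minimums.

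**Figure D3:**
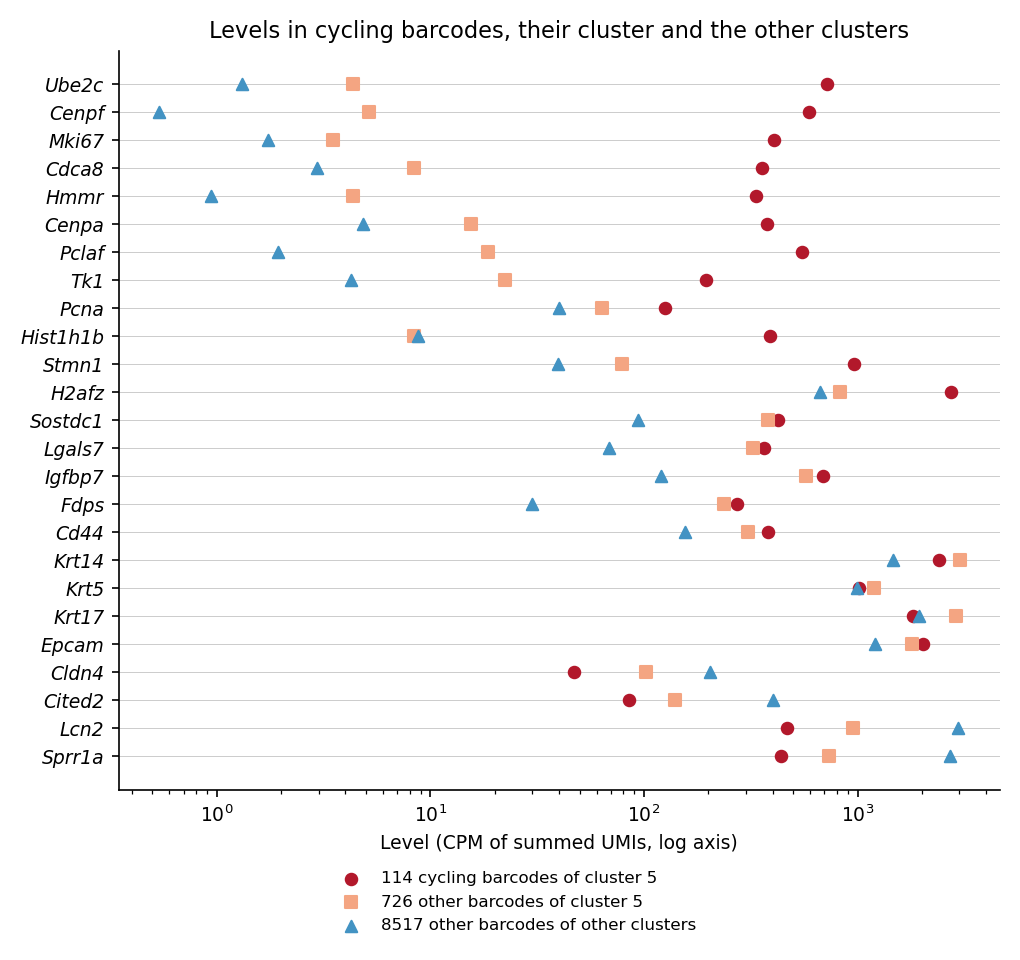
Level of 25 genes (CPM of summed UMIs, log axis) in the 114 cycling barcodes of cluster 5, in the 726 cluster mates and in the 8517 barcodes of other clusters outside the rule. Mitosis genes stand apart from both other groups, whereas Sostdc1, Lgals7, Igfbp7, Fdps and Cd44 lie close to the mates and above the other clusters.

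The balance of replication and mitosis transcripts varied among the cycling barcodes. For each barcode the UMIs of 58 replication and deoxynucleotide genes and, separately, of 79 mitosis genes outside the rule were summed per 10000 UMIs. The replication sum of cycling barcodes ran from 7.74 to 121 with a median of 35.6, and the mitosis sum from 10.9 to 175 with a median of 79.2; the medians of the mates were 10.6 and 5.57. Over the 124 barcodes the sums had a Pearson correlation of -0.43 and a Spearman correlation of -0.37, where both sums share the barcode's depth as denominator. In 32 barcodes (25.8%) the replication sum was at least as large as the mitosis sum, and in 92 it was smaller. This divides a range and not cell types, since 6 and 7 barcodes on the respective sides lay within 1.2-fold of the line. The cut depends on which genes each sum holds and on the rule, and gives no shares of cycle phases.

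Genes that did not enter either sum differed between these ranges. In the 32 replication-leaning barcodes Hells, a chromatin remodeller of S phase, stood at 231 CPM, against 54.7 CPM in the 92 mitosis-leaning ones (log2 2.06, 1.42 to 2.76). Cdkn3 stood at 18.1 against 186 CPM (-3.29, -5.26 to -1.96). Of the rule genes, by which the barcodes had been chosen, Ube2c stood at 109 against 899 CPM (-3.04, -3.70 to -2.46) and Cenpf at 95.2 against 725 CPM (-2.92, -3.64 to -2.30). Of 3047 genes compared, 1.44% were at least 2-fold higher and 3.35% lower in the replication-leaning barcodes, or 44 and 102 genes. Of these 17 and 24 were in the sums, which favoured a direction for them as sets without fixing that of each gene. Of 46 measured DNA replication genes 2 were at least 2-fold lower in the replication-leaning barcodes. None of 12 basal and 1 of 10 luminal duct genes passed 2-fold in either direction, and the medians of both lists were 0.10 and -0.28. Single keratin genes differed by more: Krt6a, a stress keratin, stood at 168 against 48.0 CPM (1.78, 1.06 to 2.56). Of 3 stress keratins 2 were at least 2-fold higher, but the higher gene besides Krt6a held under 50 UMIs. The abundant Krt17 was at 0.28 (0.12 to 0.45). Of the luminal keratins, Krt8 was at -0.89 (-1.42 to -0.41) and Krt18 at -0.76 (-1.03 to -0.50) in log2 ratio. Cluster 5 held 29 of the 32 and 85 of the 92 barcodes.

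Barcodes with replication transcripts also occurred outside the rule, which holds mostly genes of G2 and mitosis. A replication sum at or above the median of the cycling barcodes was found in 63 of the 726 mates (8.68%, 6.73 to 11.0) and in 30 of the 8517 barcodes of other clusters (0.352%, 0.238 to 0.502). Of those 63 mates 28 held none of the 10 rule genes, and the median mitosis sum of all 63 was 12.0 UMIs per 10000. At 2000 UMIs per barcode the shares were 11.4% and 0.528%.

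A set of cycling barcodes low in the nuclear RNA Malat1 was seen on inspection and chosen after its values were seen. Malat1 made up less than 1% of the UMIs in 19 of 124 cycling barcodes (15.3%, 9.48 to 22.9), in 39 of 726 mates (5.37%, 3.85 to 7.27) and in 66 of the 9243 other barcodes (0.714%). At 2000 UMIs per barcode 18 cycling barcodes were below that limit. The 19 barcodes had a median of 4282 UMIs, against 6341 in the other 105, and a median mitochondrial share of 2.22% against 2.39%; 18 of them lay in cluster 5 and 1 was marked as a doublet. None of the 19 had a replication sum as large as its mitosis sum, and the median sums were 16.0 and 79.3 UMIs per 10000, against 42.2 and 79.0 in the 105.

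Within this set some genes of mitosis were higher and others, with the genes of replication, lower. Cdc20 stood at 303 CPM, against 89.8 CPM in the other 105 cycling barcodes (log2 1.74, 1.05 to 2.42), and Cenpa at 706 against 325 CPM (1.12, 0.70 to 1.53), with Cenpa found in 18 of the 19. Top2a stood at 146 against 490 CPM (-1.74, -2.67 to -0.96), found in 4 of 19 and 97 of 105 barcodes, and Ube2c at 291 against 736 CPM (-1.33, -1.96 to -0.77). The DNA replication list had a median log2 ratio of -1.36 over 46 genes; Hells had 0 UMIs in the 19 barcodes and 84 in the other 105. The nuclear RNA Xist was lower as well, at 404 against 835 CPM. Genes of duct cells went both ways in the set. Wfdc2 stood at 8420 against 4568 CPM (0.88, 0.77 to 1.00) and Krt8 at 583 against 269 CPM (1.11, 0.64 to 1.56). Esrrg was lower, at 67.3 against 292 CPM (-2.10, -3.58 to -0.97). Lcn2 stood at 1289 against 532 CPM but was found in 8 of 19 against 68 of 105 barcodes. The median log2 ratio was 0.74 over 4 duct defence genes and 0.52 over 10 luminal duct genes. It was -0.29 over 12 basal duct genes and -2.63 over 6 cornifying genes. Of 3047 genes compared, 1.71% were at least 2-fold higher and 9.16% lower, with a median of -0.02. The lower depth of the 19 barcodes moved with these values, and its part in them was not tested.

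**Figure D4:**
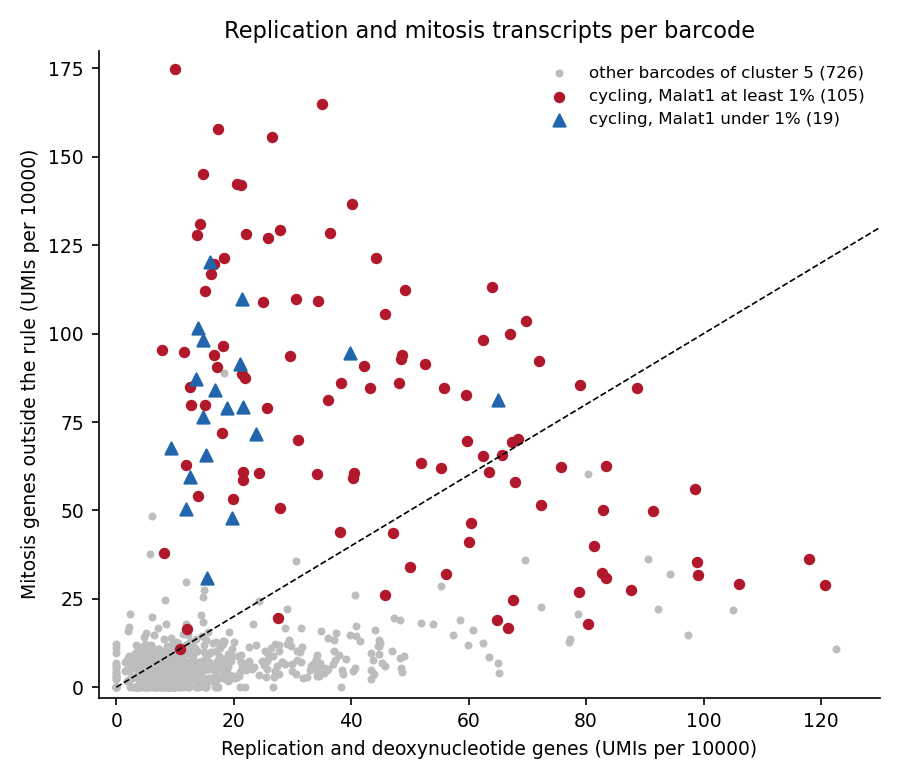
UMIs of replication and deoxynucleotide genes (horizontal) and of mitosis genes outside the rule (vertical) per 10000 UMIs of each barcode, for 124 cycling barcodes (red, or blue triangles where Malat1 was under 1%) and 726 cluster mates (grey). The dashed line marks equal sums; all 19 Malat1-low barcodes lie above it, and a tail of grey points runs along the replication axis.

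The 112 cycling barcodes of 7-day control mSGOs, which came from other animals and another run, are set beside those at 11 days. Many lay at the limit of the rule: 48 of the 112 held exactly 4 rule genes and 37 barcodes met it at 2000 UMIs, against 20 of 124 and 79 at 11 days. The DNA replication list had a median log2 ratio of 1.36 over the other barcodes of that library (31 of 48 genes at least 2-fold higher) and the kinetochore list one of 2.45 (28 of 30). Of 4343 callable genes there, which passed stricter minimums than list genes, 2.72% were higher and 1.38% lower. The basal duct median was 0.46 at 7 days and -0.31 at 11 days, where the median over all callable genes was 0.18 and -0.07. At 11 days the medians of the basal genes' interval bounds were -0.56 and 0.03, and the list's value was -0.06 with at least 2500 detected genes. The luminal duct median was 0.01 at 7 days and -0.05 at 11 days. Krt14 had a log2 ratio of -0.45 at 7 days (-0.49 to -0.40), opposite to 0.51 at 11 days over all other barcodes, but at 11 days its log2 ratio over the cluster mates was -0.32 (-0.39 to -0.24). Sostdc1 was at 283 against 96.3 CPM (1.55, 1.36 to 1.74), Cd44 had a log2 ratio of 0.62 (0.35 to 0.89) and Itgb1 one of 0.95 (0.81 to 1.10). Sprr1a had a log2 ratio of -2.06 in the 7-day control (-2.29 to -1.85). The cholesterol synthesis list had a median of 0.08 at 7 days, and Fdps stood at 358 against 356 CPM.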

How the data were processed

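The data were single-cell RNA-seq matrices of 5 libraries; the 11-day library was described, the 7-day control and other libraries only set beside it. The authors deposited whole-number UMI counts per gene and barcode; per the submitters' processing notes Cell Ranger version 5 and mm10 were used, whereas the file headers name version 7.0.0 (11-day) and 3.0.1 (others) and the study's methods GRCm39. No barcode had under 500 UMIs. Only symbols were used from the matrices, and promoters came from RefSeq on GRCm38.p6. Members and gene lists were chosen with earlier results of these data known. Counts were summed over barcodes and scaled to CPM. Named genes were the 10 rule genes, up to 8 per list by UMIs plus its extremes, and the 15 highest and 15 lowest outside the lists; those of the cholesterol, cluster 5, Malat1 and replication/mitosis comparisons were chosen after values were seen. Genes under clone or predicted identifiers (6 higher, 13 lower) were not described.

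Doublets were scored with Scrublet (scanpy 1.11.5) at an expected 0.8% per 1000 barcodes; the automatic threshold marked 0, so the 1166 highest scores were marked and kept in the main values. Clusters used 2000 variable genes, 30 components, 15 neighbours and leidenalg 0.10.2 at resolution 0.8. The scripts were tested on simulated counts. No batch within the library was labelled. Alternatives varied the rule, depth, doublets, quality limits, comparison barcodes, weights, pseudocount, scaling, filter and clustering.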

Additional observations from a re-analysis of the deposited data

How the results depend on the processing

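No paired analysis was possible because each group held 1 library. Of 95 values of the 8 main results under 18 settings, 73 stayed within 1.5-fold (counts of genes) or within the counting bounds (shares and list medians), and none of the lists whose bounds excluded 0 changed sign. The share of cycling barcodes was 1.00% with at least 6 rule genes, 0.843% at 2000 UMIs, 7.67% with at least 2500 detected genes and 4.20% with at least 4000 UMIs. The number of genes called higher was 145 with at least 2500 detected genes and 752 with a minimum of 50 UMIs and no CPM minimum. The number called lower was 1005 at 2000 UMIs, 226 with a pseudocount of 10 CPM and 1431 with the minimum of 50 UMIs. With other scaling, by the median of gene ratios, 431 were higher and 339 lower. The DNA replication median was 1.32 with a pseudocount of 10 CPM. The kinetochore median was 2.42 with that pseudocount, 3.71 with 2500 genes, 3.73 with 4000 UMIs and 3.75 with others weighted to the UMI distribution of cycling barcodes. The luminal duct median was -0.20 with 2500 genes, -0.20 with 4000 UMIs and -0.21 with those weights, and the basal duct median -0.06, -0.10 and -0.17. The highest share in a cluster was 10.5% with at least 6 rule genes, 8.81% at 2000 UMIs, 17.2% at resolution 1.2, and, chosen after seeing the data, 6.79% and 8.86% without genes higher, and without genes higher or lower. Of 715 values of the 55 named genes, 408 stayed within the counting interval of the main value and 307 did not. None of these genes that was past 2-fold with an interval off 0 changed sign. Notch1, Krt5, Krt8 and Krt18, all under 2-fold, took both signs. The causes of these shifts were not tested. The settings on genes and UMIs also select which barcodes are kept. With 1 library no spread between animals or cultures is known.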
